A study of Mus musculus with 17 samples.

Results

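The genes described here are 10 mouse heat shock chaperones: the HSP70 genes Hspa1a, Hspa1b and Hspa8, the HSP110 gene Hsph1, the HSP90 genes Hsp90aa1 and Hsp90ab1, the J protein genes Dnaja1 and Dnajb1, the small heat shock protein gene Hspb1 and the mitochondrial chaperonin gene Hspd1. They were taken by symbol, and where several probe sets carried the name of exactly 1 gene, the one of highest average signal across the 17 arrays stood for it. A probe set of its own was found for 7 of the 10, out of 17097 genes in all; Hspa1a, Hsp90ab1 and Hspd1 were not analysed here. The probe sets were selected on 1 measured value, the mean over the 17 arrays, which ran from 4.87 for Hspb1 to 11.17 for Hspa8 on the log2 scale, so these means are a description and are not tested.

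The arrays profiled cells sorted by flow cytometry from male mice of the NOD strain, in which lymphocytes infiltrate the lacrimal gland, a model of Sjögren's syndrome. There were 3 arrays of gland epithelial cells (sorted as CD326+ and CD45-), 4 of gland B cells (B220+ CD3-) and 4 of gland CD4 T cells (CD3+ CD4+), set against 3 arrays of spleen B cells and 3 of spleen CD4 T cells; all groups shared strain and sex, and the labels name no treatment. Gland donors were 16 weeks old; for spleen donors the labels read 16 weeks while the study's design gives 4 weeks, so the tissue comparison may also be one of age. Mechanical and enzymatic dissociation is described for the gland and not for the spleen. Whether arrays of a group represent separate animals is not stated, and each p-value therefore reflects only the spread between arrays, which may be technical.

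The sorted identities were seen in the arrays. The mean of 5 B cell genes was 9.82 to 9.93 in B cells of the gland and 9.93 to 10.11 in those of the spleen, and that of 6 T cell genes was 10.42 to 10.52 in gland CD4 T cells and 10.21 to 10.31 in spleen CD4 T cells. The 9 epithelial genes averaged 9.14 to 9.88 in the epithelial sort. Epithelial replicate 1 stood apart, with the leukocyte gene Ptprc at 9.62, against 2.42 and 2.36 in the other epithelial arrays. Plasmacytoid dendritic cells share B220 with B cells, and the mean of 2 of their genes was 7.61 to 9.04 in gland B cells, against 7.13 to 7.47 in spleen B cells. Ccr9 averaged 7.66 in gland and 5.53 in spleen B cells, and Tcf4 9.23 and 9.12. Both were also high in other groups, Ccr9 at 7.41 in spleen CD4 T cells and Tcf4 at 9.06 in epithelium. The part of plasmacytoid dendritic cells in the results was not tested.

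Heat shock chaperones bind unfolded proteins and help them fold or pass them on for degradation. HSP70 does so in cycles of ATP use, which J proteins start and HSP110 proteins end by nucleotide exchange, while HSP90 acts on proteins at a later stage of folding. Hspa8 and Hsp90ab1 are made in unstressed cells, whereas Hspa1a and Hspa1b are largely silent until heat, misfolded protein or other stress activates the transcription factor HSF1, which binds inverted repeats of GAA in their promoters. Such genes are also known to respond to tissue dissociation and cell sorting.

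The promoters are shown because HSF1 is the known regulator of the family, and they give the context of the inducible genes. RefSeq windows (build GRCm38.p6, 250 bases before an annotated start) were found for 7 of the 10 genes, with none for Hspa8, Hsp90aa1 and Hsp90ab1. Letters in capitals are matches to the paired repeats GAANNTTC or TTCNNGAA, which read the same on both strands and can overlap each other. The Hspa1b window is chr17:34959239-34959488 on the minus strand, Hsph1 chr5:149636337-149636586 on the minus strand, Dnaja1 chr4:40722218-40722467 on the plus strand and Hspb1 chr5:135887669-135887918 on the plus strand.
Hspa1b: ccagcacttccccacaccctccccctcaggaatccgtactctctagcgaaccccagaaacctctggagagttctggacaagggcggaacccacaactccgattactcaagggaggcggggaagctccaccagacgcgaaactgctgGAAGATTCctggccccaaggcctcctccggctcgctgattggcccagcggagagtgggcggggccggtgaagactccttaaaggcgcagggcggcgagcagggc
Hsph1: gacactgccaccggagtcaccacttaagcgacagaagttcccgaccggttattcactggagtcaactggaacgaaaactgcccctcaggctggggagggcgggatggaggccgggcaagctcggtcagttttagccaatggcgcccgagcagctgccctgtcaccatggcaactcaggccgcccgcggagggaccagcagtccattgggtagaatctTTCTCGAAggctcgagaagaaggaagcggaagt
Dnaja1: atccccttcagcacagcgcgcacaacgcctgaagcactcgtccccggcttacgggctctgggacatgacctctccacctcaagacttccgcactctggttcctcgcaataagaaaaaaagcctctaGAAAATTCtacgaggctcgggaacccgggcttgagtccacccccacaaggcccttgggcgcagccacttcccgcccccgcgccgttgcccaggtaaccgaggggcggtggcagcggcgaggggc
Hspb1: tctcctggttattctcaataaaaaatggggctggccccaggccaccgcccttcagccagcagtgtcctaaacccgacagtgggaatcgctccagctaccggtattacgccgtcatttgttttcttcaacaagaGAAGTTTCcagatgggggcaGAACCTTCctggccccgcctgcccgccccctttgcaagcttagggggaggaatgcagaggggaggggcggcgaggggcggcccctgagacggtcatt
The match lay at bases -104 to -97 from the annotated start in Hspa1b, at -33 to -26 in Hsph1 and at -124 to -117 in Dnaja1, and Hspb1 held matches at -117 to -110 and at -97 to -90. Among all RefSeq windows of this length 12.8% held such a pair, so a match is common and describes letters only. Of the 7 genes with a window 6 had a match in at least 1 window, beside 14.5% of all genes with a window. Dnaja1 has 3 windows, and only 1 of them, the one shown, held a match. The windows of Dnajb1 had none. The Hspa1a window held its match at the same place as Hspa1b, and the 250 bases of the 2 genes were identical at 247 positions. The same pair extended by a further GAA or TTC unit at equal spacing occurred in 0.466% of all windows and, among these genes, in a window of Hspd1. Since Hspa1a and Hspa1b are near-identical copies, how far the Hspa1b probe sets also read Hspa1a cannot be told from these values.

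Hspa1b, the stress-inducible HSP70, had the largest gland against spleen difference of the 7 genes in both lymphocyte subsets. Gland B cells stood at 8.34, 8.12, 10.82 and 10.56 on the log2 scale, against 5.18, 4.77 and 5.71 in spleen B cells. Gland CD4 T cells stood at 8.46, 10.79, 9.89 and 10.57, against 4.38, 5.45 and 5.09 in spleen CD4 T cells. In both subsets the lowest gland array lay above the highest spleen array, although the gland arrays spread over 2.70 in the B cell group and 2.33 in the CD4 T cell group. The 3 epithelial arrays stood at 11.12, 11.45 and 11.40, above every lymphocyte array.

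The gland mean of Hspa1b was 9.46 ± 1.43 (SD, n = 4) in B cells, against 5.22 ± 0.47 (n = 3) in spleen B cells, a rise of 4.24 (SE 0.64), or 18.9-fold (limma, Benjamini-Hochberg adjusted p = 0.000266). In CD4 T cells it was 9.93 ± 1.05 (n = 4) in the gland and 4.97 ± 0.54 (n = 3) in the spleen, a rise of 4.95 (SE 0.64), or 31-fold (adjusted p = 2.78e-05). Leaving out any single array kept the rise between 3.79 and 4.69 in B cells and between 4.66 and 5.44 in CD4 T cells. The values carry no detection calls, and the spleen levels lay close to the median of all values (4.71), so these folds are ratios of deposited values. Because cells were sorted and the RNA amount was made equal before amplification, levels are per RNA and not per cell.

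**Figure D1:**
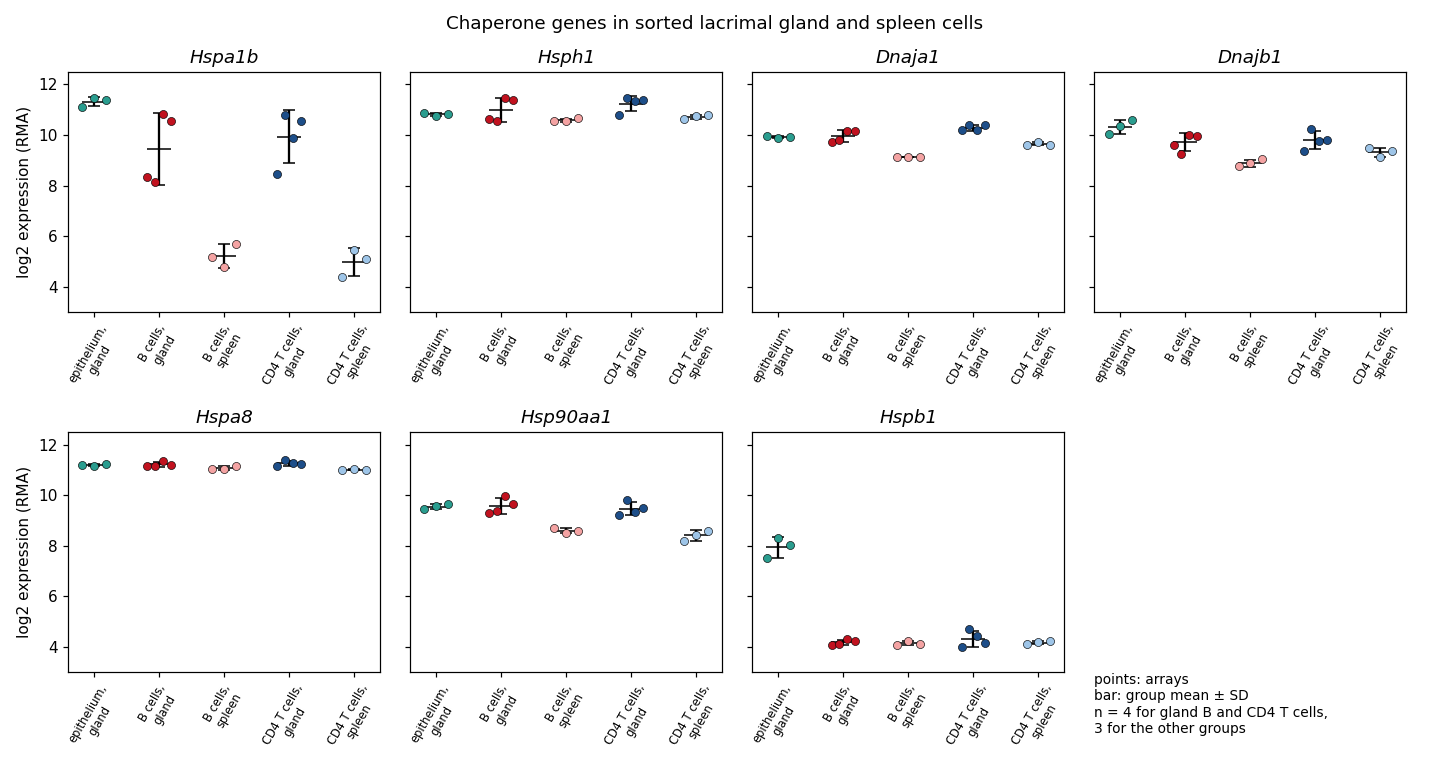
Log2 expression of the 7 measured chaperones (vertical axis, RMA values) in each array, by group (horizontal axis); points are arrays, and bars are group means with their SD. The gland and spleen means of Hspa1b in lymphocytes lie over 4 units apart, Hspb1 stands near 8 in epithelium alone, and the group means of each other gene lie within 1.5 units.

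Of the 7 measured chaperones 1 was called higher in gland than in spleen B cells, against a background of 2.58% of all genes, and none was called lower (background 1.6%). To be called, a gene needed at least a 2-fold change together with a limma p below 0.05 after adjustment over the 17097 genes. In CD4 T cells 2 were called higher, Hspa1b and Hsp90aa1 (background 5.35%), and none lower (background 1.62%). By the adjusted p alone 4 were higher in each subset, beside 7.79% of all genes for B and 12.7% for CD4 T lymphocytes. The 4 were Hspa1b, Hsp90aa1, Dnaja1 and Dnajb1 in B cells, and Hspa1b, Hsp90aa1, Dnaja1 and Hspa8 in CD4 T cells. The gland arrays lay wholly above the spleen arrays for 4 of 7 in B cells and for 4 of 7 in CD4 T cells, beside 14.5% and 16.8% of all genes. These chaperones were chosen with earlier results of these data known, so the counts and shares are a description and not a test.

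Among the partners of HSP70, Dnaja1, a J protein that delivers clients to HSP70, had levels of 9.74, 9.80, 10.17 and 10.15 in gland B cells, against 9.12, 9.13 and 9.14 in spleen B cells. In CD4 T cells it had 10.18, 10.39, 10.20 and 10.38 in the gland, against 9.61, 9.72 and 9.61 in the spleen. The groups did not overlap in either subset, and the spleen arrays of a subset were nearly level. The differences were 0.84 (SE 0.10, adjusted p = 3.98e-05) in B cells and 0.64 (SE 0.10, adjusted p = 0.000221) in CD4 T cells by limma, both below 2-fold.

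Dnajb1, the J protein partner of stress-induced HSP70, stood at 9.60, 9.24, 10.02 and 9.96 in gland B cells, against 8.76, 8.88 and 9.03 in spleen B cells. Gland CD4 T cells had 9.37, 10.24, 9.76 and 9.80, against 9.48, 9.12 and 9.35 in spleen CD4 T cells. The B cell groups were apart, while the lowest gland CD4 T cell array lay within the spleen range. The difference was 0.82 (SE 0.21, limma adjusted p = 0.0114) in B cells and 0.47 (SE 0.21, adjusted p = 0.117) in CD4 T cells. In B cells the adjusted p reached 0.0524 on leaving out 1 array. The second Dnajb1 probe set gave larger differences, 1.88 (SE 0.25, adjusted p = 9.28e-05) in B cells and 1.46 (SE 0.25, adjusted p = 0.000414) in CD4 T cells, and was called in both.

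Hsph1, the HSP110 exchange factor that releases nucleotide from HSP70, was at 10.62, 10.57, 11.45 and 11.38 in gland B cells, against 10.54, 10.56 and 10.66 in spleen B cells. In gland CD4 T cells it was at 10.80, 11.45, 11.33 and 11.37, against 10.64, 10.74 and 10.80 in spleen CD4 T cells. Some gland arrays stood well above the spleen range and others lay within it, so that the groups overlapped. The differences were 0.42 (SE 0.20, adjusted p = 0.178) in B cells and 0.51 (SE 0.20, adjusted p = 0.0818) in CD4 T cells by limma. Leaving out single arrays gave 0.27 to 0.56 in B cells (adjusted p = 0.064 to 0.42) and 0.44 to 0.66 in CD4 T cells (0.0235 to 0.211). The value of 0.66 (adjusted p = 0.0235) was that without the lowest gland CD4 T cell array, replicate 1.

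Hsp90aa1, the inducible cytosolic HSP90, was at 9.31, 9.37, 9.97 and 9.66 in gland B cells, against 8.70, 8.52 and 8.57 in spleen B cells. Its levels in gland CD4 T cells were 9.21, 9.82, 9.35 and 9.48, against 8.20, 8.43 and 8.60 in spleen CD4 T cells. All gland arrays lay above all spleen arrays of their subset. The difference was 0.98 (SE 0.16, adjusted p = 0.000552) in B cells, just under the 2-fold line, and 1.05 (SE 0.16, adjusted p = 0.000141) in CD4 T cells, just over it. The side of that line depended on single arrays: in B cells it was crossed without gland replicate 1 (1.07) or 2 (1.05) or spleen replicate 1 (1.03), and in CD4 T cells the call was lost without gland replicate 2 (0.93) or spleen replicate 1 (0.95), with array weights (0.95) and with arrays centred on their medians (0.90).

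Hspa8, the constitutive HSP70 of the cytosol, had the narrowest range of group means of the 7 genes, 11.01 to 11.27. It had 11.17, 11.15, 11.37 and 11.20 in gland B cells, against 11.03, 11.05 and 11.15 in spleen B cells, and 11.16, 11.40, 11.29 and 11.24 in gland CD4 T cells, against 11, 11.03 and 11.01 in spleen CD4 T cells. The B cell groups overlapped at 11.15, and the CD4 T cell groups did not overlap. The difference was 0.15 (SE 0.07, adjusted p = 0.2 by limma) in B cells, with a 95% interval of -0.01 to 0.31, and 0.26 (SE 0.07, adjusted p = 0.018) in CD4 T cells, with an interval of 0.10 to 0.42. With arrays centred on their medians the CD4 T cell difference was 0.10 (adjusted p = 0.348), a scaling that moved the median of all genes by -0.16, and leaving out single arrays took the adjusted p up to 0.0583.

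Hspb1, which encodes a small heat shock protein that holds unfolded proteins without using ATP, stayed low in lymphocytes. The 14 lymphocyte arrays ran from 3.98 to 4.70, below the median of all values, and gland and spleen overlapped in both subsets. The gland against spleen difference was 0.03 (SE 0.17) in B cells and 0.15 (SE 0.17) in CD4 T cells, with limma adjusted p = 0.93 and 0.61.

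**Figure D2:**
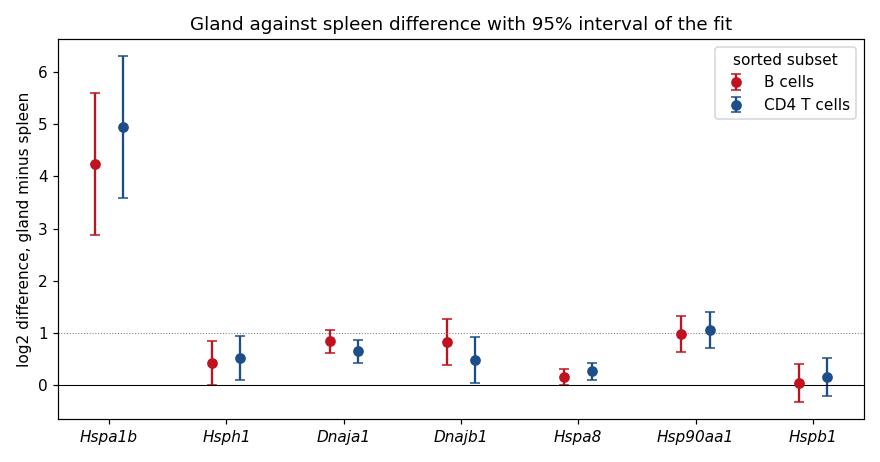
Gland minus spleen difference in log2 expression (vertical axis) for each chaperone (horizontal axis) in B cells (red) and CD4 T cells (blue), with the 95% interval of the fit; the dotted line marks 2-fold. Hspa1b lies at 4.24 and 4.95, Hsp90aa1 at the 2-fold line, and Hspa8 and Hspb1 near 0.

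The probe sets of a gene differed in the size of the change more than in its direction. Hspa1b has 3 probe sets with a single gene name. The other 2 gave differences of 2.61 (SE 0.67, adjusted p = 0.0133) and 1.72 (SE 0.80, adjusted p = 0.173) in B cells by limma over all named probe sets. In CD4 T cells they gave 3.07 (SE 0.67, adjusted p = 0.0029) and 2.10 (SE 0.80, adjusted p = 0.0738). Both were dim in the spleen, with means of 2.64 and 1.89 in B cells and 2.57 and 1.93 in CD4 T cells. Of the 4 Hspa8 probe sets, 3 differed by 0.10 to 0.26 and the fourth by 0.64 (SE 0.13, adjusted p = 0.00241) in B cells and 0.80 (SE 0.13, adjusted p = 0.000178) in CD4 T cells. The second Dnaja1 probe set gave 0.83 in B and 0.88 in CD4 T lymphocytes, and the 4 Hspb1 probe sets ranged from -0.23 to 0.34.

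**Figure D3:**
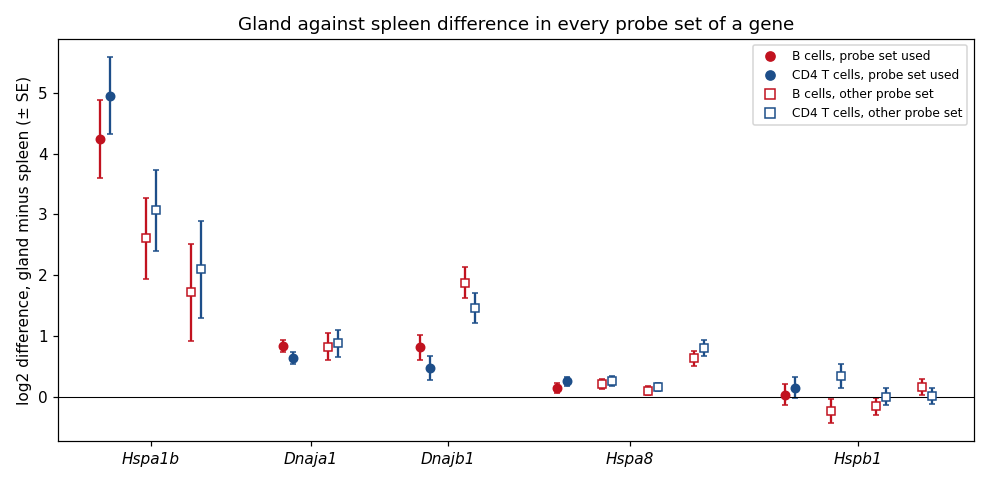
Gland minus spleen difference in log2 expression (vertical axis, with its SE) in every probe set of the 5 chaperones that have more than 1; filled circles are the probe sets used, open squares the others. For Hspa1b the probe set used shows the largest difference, and for Dnajb1 the other probe set does.

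The gland effects in B cells and CD4 T cells were compared in the same fit. None of the 7 chaperones was called for a difference between the 2 effects by limma (background 5.08%), and none reached an adjusted p under 0.05 (background 10.1%); the lowest was 0.49, for Dnaja1. For Hspa1b the B cell effect minus the CD4 T cell effect was -0.71 (SE 0.90, adjusted p = 0.733), with a wide 95% interval of -2.63 to 1.21, which holds 0 and differences of up to 2.63 units. For Hsp90aa1 it was -0.08, with an interval of -0.56 to 0.41, and for Dnajb1 0.34, with an interval of -0.28 to 0.96.

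Within the gland, B cells and CD4 T cells differed in none of the 7 by at least 2-fold (background 9.7%). Dnaja1 was lower in gland B cells, with a mean of 9.96 ± 0.23 against 10.29 ± 0.11 in gland CD4 T cells, a difference of -0.32 (SE 0.09, adjusted p = 0.0163 by limma), which was -0.21 (adjusted p = 0.134) with centred arrays; by the adjusted p alone 16.1% of all genes were lower. In the spleen, where none was called either (background 9.15%), Dnaja1 was at 9.13 ± 0.01 in B cells against 9.65 ± 0.06 in CD4 T cells, a difference of -0.52 (SE 0.11, adjusted p = 0.00193), where 11.3% of all genes were lower by the adjusted p alone. The gland value did not pass without gland B cell replicate 1 (adjusted p = 0.058) or 2 (0.0584) or gland CD4 T cell replicate 4 (0.0511), nor when only the groups compared were fitted (0.0703). The second Dnaja1 probe set gave -0.28 (adjusted p = 0.366) in the gland and -0.23 (adjusted p = 0.633) in the spleen. For Hspa1b the B minus CD4 T cell difference was -0.47 (SE 0.59) in the gland and 0.24 (SE 0.68) in the spleen, neither past the threshold (limma adjusted p = 0.614 and 0.884).

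The arrays of one gland group differed together across the chaperones. In gland B cells, replicates 3 and 4 stood above replicates 1 and 2 for each of the 7 genes. For Hspa1b the gap between these arrays exceeded 2 units, and for Hsph1 they were at 11.45 and 11.38 while the other two lay at 10.62 and 10.57, the level of the spleen. In gland CD4 T cells replicate 1 was the lowest and replicate 2 the highest for each of the 7, with Hspa1b at 8.46 and 10.79.

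Some other gene lists differed along with this order or against it. The mean of 15 immediate early genes, which respond quickly to stimulation or handling, was 9.44, 9.47, 9.73 and 9.67 in gland B cells, against 6.78 to 6.94 in spleen B cells. In gland CD4 T cells it was 9.13, 9.42, 9.29 and 9.34, against 6.94 to 7.13 in spleen CD4 T cells, and 13 of the 15 were called higher in gland B cells (background 2.58%) and 10 in gland CD4 T cells (background 5.35%). In B cells replicates 3 and 4 were again the upper pair, and in CD4 T cells the array order was that of Hspa1b, over a range of 0.295 in each subset. The mean of 5 lacrimal secretory genes was lowest in the array highest in Hspa1b in both subsets, at 10.29, 10.10, 9.12 and 9.58 in gland B cells and 10.15, 9.21, 9.69 and 9.58 in gland CD4 T cells, against 3.89 to 6.0 over the 6 spleen arrays. All 5 secretory genes stood above the median of all values in both gland subsets, and epithelium stood at 11.65 to 11.82. The mean of 9 epithelial genes did not share the secretory order. It was 5.54, 5.29, 5.47 and 5.55 in gland B cells. In gland CD4 T cells it was 5.37, 5.75, 5.82 and 5.58, lowest in replicate 1. In gland B cells the plasmacytoid dendritic cell genes, at 9.04, 8.88, 7.61 and 8.24, and 7 myeloid genes, at 5.55, 5.33, 4.84 and 5.33, were also lowest in replicate 3, the array highest in every chaperone. In gland CD4 T cells the 3′ minus 5′ signal of control probe sets was highest in replicate 2, the array highest in every chaperone, at 1.57 for Actb and 1.15 for Gapdh, against 0.81 to 1.07 and 0.83 to 0.91 in the other arrays. In gland B cells this signal did not follow the chaperones. Replicate 3 had 0.96 for Actb, against 0.84 to 1.15 in the other arrays. Its Gapdh value, 0.997, was the lowest, against 1.08 to 1.17. The labels also give 3 samples a lower RNA integrity than the rest, under numbers that were not matched to arrays here. The part of handling, of RNA from other cells and of RNA quality in the chaperone levels was not tested.

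**Figure D4:**
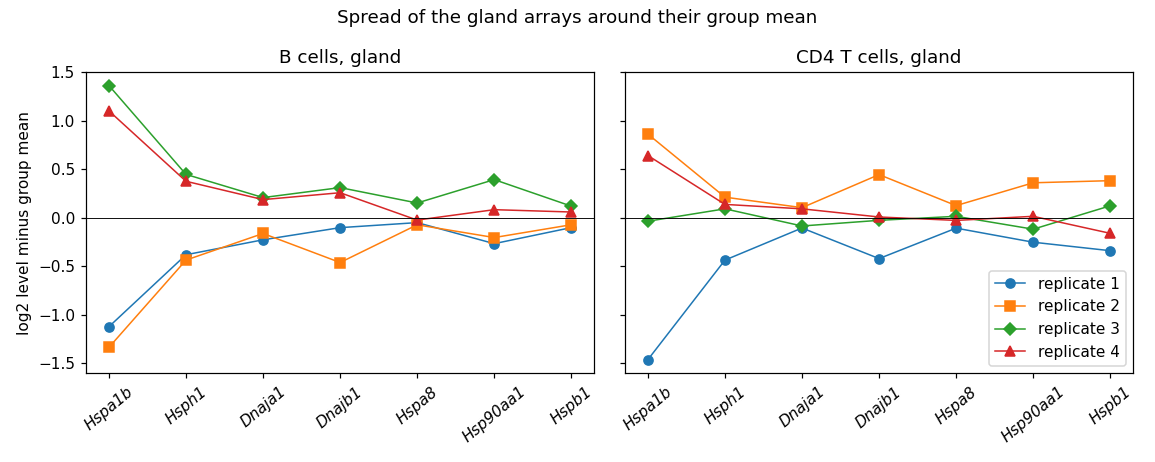
Log2 level minus the group mean (vertical axis) for each chaperone (horizontal axis) in the 4 gland B cell arrays (left) and the 4 gland CD4 T cell arrays (right), with a line per array. In B cells the lines of replicates 3 and 4 stay above those of replicates 1 and 2, and in CD4 T cells replicate 1 is lowest for every gene.

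Gland epithelium was set against the average of both gland lymphocyte groups. Of the 7 chaperones Hspb1 and Hspa1b were called higher (background 15.2%) and none lower (background 10.3%). Hspb1 stood at 7.5, 8.31 and 8.04 in epithelium, against 4.07 to 4.29 in gland B cells and 3.98 to 4.70 in gland CD4 T cells. All epithelial arrays were more than 2 units above every lymphocyte array. The difference was 3.70 (SE 0.15), or 13-fold (limma adjusted p = 4.67e-12), measured against lymphocyte levels below the median of all values. All 4 Hspb1 probe sets showed it, with differences of 2.39 to 3.70, and without epithelial replicate 1 it was 3.92.

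The epithelial sort also held genes of other cells of the gland. The mean of 5 myoepithelial genes was 9.35 to 9.67 in epithelium, against 4.61 to 4.98 in gland B cells and 4.76 to 5.17 in gland CD4 T cells. The mean of 5 endothelial genes was 7.27 to 7.96 in epithelium, against 4.32 to 4.61 in gland B cells and 3.83 to 3.92 in gland CD4 T cells. All 5 genes of both lists stood above the median of all values in the epithelial sort. The mean of 5 fibroblast genes, 3 of them above that median in epithelium, was 6.11 to 6.64 there, against 3.15 to 3.32 in gland B cells and 3.04 to 3.30 in gland CD4 T cells. The mean of 2 red cell genes was 8.88 to 9.23 in epithelium, against 4.62 to 5.97 in gland B cells and 4.54 to 5.5 in gland CD4 T cells. The part of these cells in the Hspb1 level was not tested. Epithelial identity genes, at 9.14 to 9.88 in epithelium, were also above their spleen level in gland lymphocytes, at 5.29 to 5.55 in B cells and 5.37 to 5.82 in CD4 T cells, against 3.76 to 3.89 over the spleen arrays. In these same arrays Hspb1 ran from 4.07 to 4.29 in gland B cells, against 4.08 to 4.22 in spleen B cells. It ran from 3.98 to 4.70 in gland CD4 T cells, against 4.10 to 4.24 in spleen CD4 T cells. The part of epithelial RNA in these levels was not tested.

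For Hspa1b, epithelium at 11.33 ± 0.18 (n = 3) was 1.63 (SE 0.57), or 3.1-fold, above the mean of the gland lymphocytes (limma adjusted p = 0.0193). The call was lost without epithelial replicate 2 (1.57, adjusted p = 0.0604) or 3 (1.59, adjusted p = 0.0565). It held without epithelial replicate 1 (1.74, adjusted p = 0.0367), the array with high Ptprc. Set against each subset alone, epithelium was 1.87 above gland B cells (adjusted p = 0.0184) and 1.40 above gland CD4 T cells (adjusted p = 0.0729). The other 2 Hspa1b probe sets gave 2.41 (SE 0.71, adjusted p = 0.00741) and 2.0 (SE 0.59, adjusted p = 0.00759). Control probe sets gave a 3′ minus 5′ signal of 1.71 to 2.24 for Actb in epithelium, against 0.81 to 1.57 over the gland lymphocyte arrays, a measure of RNA length whose part was not tested.

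By the adjusted p alone 3 of the 7 were higher in epithelium, beside 27.9% of all genes. Dnajb1, the third, had a mean of 10.32 ± 0.28 in epithelium, 0.57 (SE 0.18, limma adjusted p = 0.0119) above the gland lymphocytes, which was 0.26 (adjusted p = 0.214) with centred arrays. That scaling moved the median of all genes in the epithelial comparison by -0.31, and the second Dnajb1 probe set, without it, gave 0.72 (SE 0.22, adjusted p = 0.0102). Dnaja1 was at -0.21 (SE 0.09, adjusted p = 0.0518) and at -0.53 (adjusted p = 0.000213) with centred arrays. Hsph1 was at -0.30 (SE 0.18, adjusted p = 0.149), or -0.62 (adjusted p = 0.00599) with centred arrays. Hspa8 was at -0.05 (SE 0.07, adjusted p = 0.556), or -0.36 (adjusted p = 0.000476) with centred arrays. The Hspa8 probe sets disagreed here, since the dimmest of the 4 was 1.51 higher in epithelium (SE 0.11, adjusted p = 4.82e-09). Hsp90aa1 was at 0.03 (SE 0.14, adjusted p = 0.855) and, with centred arrays, at -0.28 (adjusted p = 0.103).

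Across the 5 groups the order of mean levels was epithelium, gland CD4 T cells, gland B cells, spleen B cells and spleen CD4 T cells for Hspa1b, and the neighbours that differed were gland B cells and spleen B cells. For Hsp90aa1 gland B cells (9.57), epithelium (9.55) and gland CD4 T cells (9.46) could not be told apart, and spleen B cells (8.60) were lower (limma adjusted p = 0.000436). For Hspb1 only epithelium and gland CD4 T cells, its next neighbour, differed. For Dnajb1 epithelium stood above gland CD4 T cells (adjusted p = 0.0368), and no other neighbours differed. For Dnaja1 the order was gland CD4 T cells, gland B cells, epithelium, spleen CD4 T cells and spleen B cells, with gland B cells and epithelium the only neighbours that did not differ (adjusted p = 0.683). For Hsph1 and Hspa8 no neighbours differed.

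The genes whose pattern over the 17 arrays was most like that of Hspa1b were sought among 10151 genes with a mean above the median of all values. They were Clu (Pearson r = 0.966), Gm8783 (0.965), Btg2 (0.959), Ltf (0.953) and Wfdc18 (0.953). For Hspa8 they were Maff (0.930), Muc1 (0.902), Cdkn1a (0.896), Emd (0.893) and Coq10b (0.893). For Hspb1 they were Adamts1 (0.996), 0610040J01Rik (0.995), Col6a2 (0.994), Esam (0.993) and Card10 (0.993). The arrays share cell types and tissues, so these values describe groups more than single arrays.

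Other heat-inducible genes rose in part. Of 13 measured genes of that list, 3 were called higher in gland B cells (background 2.58%) and 4 in gland CD4 T cells (background 5.35%), with none lower. The list medians were 0.08 for B and 0.35 for CD4 T lymphocytes, beside 0.00 and -0.03 over all genes. Bag3, a nucleotide exchange factor that links HSP70 to autophagy, was 3.52-fold higher in gland B cells (SE 0.30 on the log2 scale, limma adjusted p = 0.000559) and 3.65-fold higher in gland CD4 T cells (SE 0.30, adjusted p = 0.000219). Its spleen B cell mean, 3.25, lay below the median of all values. Dnajb4, a heat-inducible J protein, was 2.88-fold higher in gland B cells (limma adjusted p = 0.00177). In gland CD4 T cells Hspa4l, of the HSP110 family, was 2.52-fold higher (adjusted p = 0.00104).

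In epithelium against gland lymphocytes 4 of the 13 heat-inducible genes were called higher (background 15.2%) and none lower (background 10.3%). By the adjusted p alone 5 were higher and 5 lower, where 11081 of all 17097 genes passed in either direction. The list median was -0.20, beside -0.10 over all genes. The small heat shock protein genes Cryab and Hspb8 were among the 4 called higher. Cryab, the αB-crystallin gene, averaged 10.90 in epithelium, 5.86 in gland B cells against 3.29 in spleen B cells, and 6.75 in gland CD4 T cells against 3.48 in spleen CD4 T cells. It rose 5.96-fold in B cells (limma adjusted p = 0.00458) and 9.64-fold in CD4 T cells (adjusted p = 0.000418), and was 24.1-fold higher in epithelium than in gland lymphocytes (adjusted p = 6.04e-07). Hspb8, a partner of Bag3, averaged 9.67 in epithelium, 5.12 in gland B cells and 5.67 in gland CD4 T cells. Its rise in CD4 T cells was 2.09-fold (adjusted p = 0.00282), and its epithelial difference 19.4-fold (adjusted p = 2.99e-11). Bag3 and Serpinh1, a collagen chaperone, were the other genes called higher in epithelium, at 2.66-fold (adjusted p = 0.000214) and 22.5-fold (adjusted p = 7.58e-16). Bag3 averaged 7.93 in epithelium, 7.97 in gland CD4 T cells and 5.07 in gland B cells. Its epithelial mean was therefore above that of gland B cells and not above that of gland CD4 T cells. Hspb8 averaged 4.69 in spleen B cells and 4.61 in spleen CD4 T cells. Cryab and Hspb8 in the spleen, and Serpinh1 in gland lymphocytes (3.57 for B and 3.50 for CD4 T), lay below the median of all values. Signal over background is not known there, so the sizes of the folds over these levels are uncertain. Epithelial identity genes were also above their spleen level in gland lymphocytes. The part of RNA from epithelium in the gland lymphocyte levels of Cryab and Hspb8 was not tested.

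**Figure D5:**
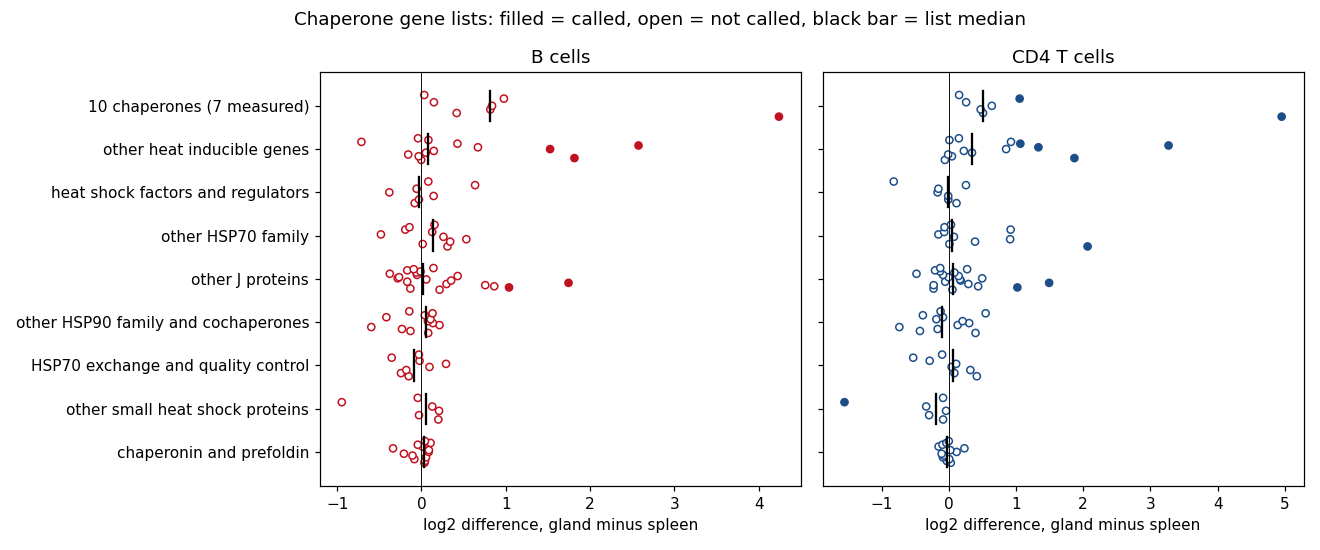
Gland minus spleen difference in log2 expression (horizontal axis) for the genes of each chaperone list (vertical axis) in B cells (left) and CD4 T cells (right); filled points were called, open points were not, and the black bar is the list median. The called genes lie mostly among the 10 chaperones, the other heat inducible genes and the J proteins, and the chaperonin and prefoldin genes lie near 0.

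The other chaperone lists were counted between gland and spleen in the same way. Over all genes 2.58% were called higher and 1.6% lower in B cells, and 5.35% and 1.62% in CD4 T cells. None of the 13 chaperonin and prefoldin genes, which fold newly made actin and tubulin, was called in either subset, and their medians were 0.04 for B and -0.03 for CD4 T lymphocytes. None was called either among the 12 measured HSP90 family and cochaperone genes, the 8 genes of HSP70 exchange and quality control or the 7 heat shock factors and regulators; Hsf1 itself was not analysed here. Among 20 other J proteins 2 were called higher in each subset, beside backgrounds of 2.58% for B and 5.35% for CD4 T lymphocytes. They were Dnajb9, of the endoplasmic reticulum (3.35-fold in B cells, limma adjusted p = 2.33e-07, and 2.82-fold in CD4 T cells, adjusted p = 3.88e-07), and Dnaja4 (2.05-fold and 2.03-fold, adjusted p = 0.0071 and 0.00532). Of 10 other HSP70 family genes Hspa2 was called higher in CD4 T cells (background 5.35%), at 4.19-fold (adjusted p = 1.36e-05), and none in B cells. Among 6 other small heat shock protein genes Hspb11, which also encodes a protein of intraflagellar transport, was called lower in CD4 T cells (background 1.62%), where it fell by 1.55 (SE 0.13, adjusted p = 3.3e-07), at a gland mean of 3.17 that lay below the median of all values.

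In the epithelial comparison these lists split in both directions, beside backgrounds of 15.2% higher and 10.3% lower. Among J proteins Dnajc3, of the endoplasmic reticulum, was 3.16-fold higher (limma adjusted p = 1.06e-09). Dnaja4 and Dnajb2 were 2.55-fold and 2.15-fold higher, while Dnajc2, bound to ribosomes, fell by 1.26. Dnaja4 averaged 8.30 in epithelium, close to 8.16 in gland CD4 T cells, and 5.74 in gland B cells. Its difference was therefore mainly one from gland B cells. Among HSP70 genes Hspa12b and Hspa13 were 3.31-fold and 2.59-fold higher and Hspa14 fell by 1.25. Fkbp5, a cochaperone of steroid receptors, was 4.95-fold higher (adjusted p = 4.19e-10), and Tsc1 fell by 1.16. Bag2 was 4.33-fold higher (adjusted p = 4.15e-10), over gland lymphocyte levels below the median of all values, and Sirt1, a deacetylase that acts on HSF1, fell by 1.27 (adjusted p = 9.57e-06). None of the chaperonin and prefoldin genes or of the other small heat shock protein genes was called in epithelium.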

How the data were processed

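The authors deposited log2 signals for 45141 probe sets on 17 arrays, made with Partek and RMA, per the submitters' processing notes; versions and the genome build are not given in the sources used here. Per the labels, RNA was amplified and labelled with biotin before hybridisation. Groups came from the sample titles.

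Probe sets were named from the platform annotation, with symbols updated by gene identifier (28898 had exactly 1 gene, 551 several and 15588 were not listed; 104 were controls). Keeping each gene's brightest probe set on average left 17097 genes, and dim genes were not filtered. Using limma 3.58.1 (R 4.3.3), 1 model with 5 group means was fitted to all arrays (lmFit and eBayes; 12 residual and 3.17 prior degrees of freedom), with Benjamini-Hochberg adjustment over all genes; every adjusted p is from limma. The fit was tested on simulated data. The number of arrays limits precision.

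The members and gene lists were chosen with earlier results of these data known, so no test was run over a list. Named genes were the 10 chaperones with every probe set, up to 4 called genes per list and comparison, and the 5 genes most correlated with Hspa1b, Hspa8 and Hspb1. Same-numbered arrays did not deviate together (correlations of -0.40 to 0.21 over 31 pairs, 2 of them over 0.1), so the numbers were not taken as pairs. Correlations between arrays of a group were 0.976 to 0.996. Alternatives are in the closing section. Promoters are from RefSeq (GRCm38.p6), and figures used matplotlib 3.10.9.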

Additional observations from a re-analysis of the deposited data

How the results depend on the processing

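Counts of called chaperones are small, so 1 gene moves them by over 1.5 times. In gland against spleen B cells the count of 1 was 4 with the adjusted p alone and 2 with all probe sets of a gene averaged (Dnajb1 at 1.35), and 1 to 2 on leaving out single arrays. In CD4 T cells the count of 2 was 4 with the adjusted p alone, 1 with arrays centred on their medians and 1 with array weights, and 1 to 2 on leaving out single arrays. In epithelium against gland lymphocytes the count of 2 was 1 to 2 on leaving out single arrays. The counts of 0 for B against CD4 T cells were 1 in the gland and 1 in the spleen with the adjusted p alone (Dnaja1). With the replicate number as a block the counts were 1, 2, 0, 2, 0 and 0 in the 6 comparisons, as without it, and the block changed no call of a chaperone; over all genes it gave 730 calls beside 714 in B cells and 1215 beside 1191 in CD4 T cells. Differences that lay close to 0 and had not passed the test changed sign. With centred arrays these were Hspb1 in gland against spleen CD4 T cells (-0.00135), the B minus CD4 T cell gland effects of Hspa8 (0.0239), Hsph1 (0.0425), Hsp90aa1 (0.058) and Hspb1 (0.0137), Hsp90aa1 in epithelium (-0.28), and Hspa8 (0.0683) and Dnajb1 (0.0323) in gland B against CD4 T cells. With probe sets averaged they were Hspb1 in gland against spleen B cells (-0.0495; -0.0426 with quantile normalization), Hspa8 in epithelium (0.36, adjusted p = 3.85e-05), and Hspa8 (-0.0152) and Hspb1 (0.0441) in spleen B against CD4 T cells. Leaving out single arrays gave -0.00626 to 0.0711 for Hspb1 in gland against spleen B cells. For the difference of gland effects it gave -0.24 to 0.0543 for Hsph1, -0.207 to 0.0436 for Hsp90aa1 and -0.234 to 0.00657 for Hspb1. It gave -0.0126 to 0.0975 for Hsp90aa1 in epithelium. In B against CD4 T cells it gave -0.0207 to 0.23 for Hsp90aa1 and -0.226 to 0.0695 for Dnajb1 in the gland, and -0.0515 to 0.484 for Hspa1b and -0.066 to 0.00488 for Hspb1 in the spleen. The filter on dim genes, trend and robust settings, adjusting over all probe sets (with the same probe set counted for each gene) and fitting only the groups compared left every count of called chaperones as it was. The cause of these shifts was not tested, apart from centring, which moves every gene of a comparison by 1 amount. No gland array stood apart by Dixon's test for 4 samples, and groups of 3 were not tested. That test looks at 1 end array, so it cannot flag a split of 2 arrays against 2, as in gland B cells.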
